A study of Mus musculus with 12 samples.

Results

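Brain myeloid cells sorted as GFP+ or GFP- after intracerebroventricular (i.c.v.) dosing were compared with each other, using 4 of the 12 single-cell libraries of the series. The libraries were taken by their route and sort labels, and cells were kept where at least 200 genes were detected and at most 10% of unique molecular identifiers (UMIs, which count captured RNA molecules) came from mitochondrial genes. This left 14599 of the 30775 cells kept in the whole series. The GFP+ libraries held 2621 cells (female) and 3536 cells (male), and the GFP- libraries held 4355 cells (female) and 4087 cells (male). Both sorts came from the same 2 mice, 1 female and 1 male, so each group had n = 2 libraries, and each library stood for 1 mouse. An exact permutation test over 2 against 2 libraries cannot give a p below 0.333, so the tests below come from a model fitted across all genes.

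The recipients were C57BL/6J mice conditioned with busulfan, a drug that depletes the recipient's own blood stem cells. They received, as a single infusion into 1 lateral ventricle, lineage-negative hematopoietic stem and progenitor cells (HSPCs) from male donors that carried a lentiviral vector for enhanced green fluorescent protein (EGFP). Per the methods, all animals were later also given total bone marrow without the vector by vein, so a cell that lacks GFP is not thereby a cell of the recipient. The series text places the sort 12 to 13 months after dosing, whereas the labels give an age of 22 to 28 weeks, and both are stated as given. Whole brains were dissociated, and cells positive for CD45, CD11b and CX3CR1 were sorted by GFP. The 4 libraries of mice dosed by vein (i.v.), also 1 female and 1 male, entered the same fit and are used here only to show where the i.c.v. mice differ. Sorted microglia and astrocytes of an untreated C57BL/6J animal, labelled 8 to 12 weeks old and so younger than the dosed mice, are used only beside shares of cells.

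Microglia are the resident macrophages of the brain parenchyma. They arise from yolk-sac precursors, renew themselves locally, and depend on signalling through the CSF1 receptor and on TGF-beta. Macrophages at the borders of the brain (meninges, perivascular spaces and choroid plexus), called CNS-associated macrophages (CAMs), share many of these genes but lack the transcription factor Sall1, which maintains microglial identity. When the niche is emptied by conditioning, cells of bone marrow origin can settle in the parenchyma, take on a microglia-like shape and keep features of their marrow origin.

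The transgene followed the sort. EGFP gave 294 UMIs in the GFP+ female library and 183 UMIs in the GFP+ male library, and 1 UMI in each GFP- library. In CPM (UMIs of a gene scaled to a common library total), this was 34.5 and 18.2 CPM against 0.119 and 0.119 CPM. From the summed counts the ratio was 216-fold with a 95% counting interval of 59.5 to 1790, which covers counting error only. EGFP passed the test (log2 fold change 7.63 ± 0.56 (SE), adjusted p = 0.00164). At a fixed depth of 500 UMIs per cell, EGFP was found in 1.26% and 0.594% of GFP+ cells, so the transcript cannot sort single cells at this depth.

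The label microglia was checked against marker genes. At least 3 of 12 microglia markers were found in 95.8% and 97.6% of GFP- cells (female and male) and in 78.5% and 80.4% of GFP+ cells. At least 3 of 10 CAM markers were found in 13.5% and 9.35% of GFP- cells and in 34.3% and 39.8% of GFP+ cells. The CAM share was higher in both GFP+ libraries than in either GFP- library, and the microglia share was lower in both, at median depths of 1058 and 1060.5 UMIs in GFP+ cells and 920 and 956 UMIs in GFP- cells. No GFP+ cell held 3 of 10 monocyte markers or 3 of 10 neutrophil markers, and 0 of 2621 and 0 of 3536 cells allow shares of up to 0.114% and 0.0848%. In the GFP- libraries 0.299% and 0.196% of cells were monocyte-marked and 0.482% and 0.294% were neutrophil-marked. After i.v. dosing, the shares among GFP+ cells were 2.09% and 1.90% for monocytes and 0.419% and 1.10% for neutrophils. At least 3 of 10 dendritic cell markers were found in 0.382% and 0.764% of GFP+ cells after i.c.v. dosing and in 4.87% and 5.30% after i.v. dosing.

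The GFP+ and GFP- cells were then compared gene by gene. Counts were summed per library and tested with edgeR's quasi-likelihood test, with p-values adjusted over all genes by the Benjamini-Hochberg method and a call set at an adjusted p under 0.05. Of 12540 genes tested, 168 were higher in GFP+ cells (1.34% of the genes tested) and 555 were lower (4.43%), or 5.77% in either direction. These shares are the reference for the counts of list members given below. The median log2 fold change over all genes was -0.0018. With the animal as a replicate block, which uses that both sorts came from the same mouse, 458 genes were higher and 825 lower. Values that do not overlap between the groups are no rarity with 2 libraries each: this held for 59.2% of all genes tested, with 28.3% higher and 30.9% lower in GFP+ cells.

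**Figure D1:**
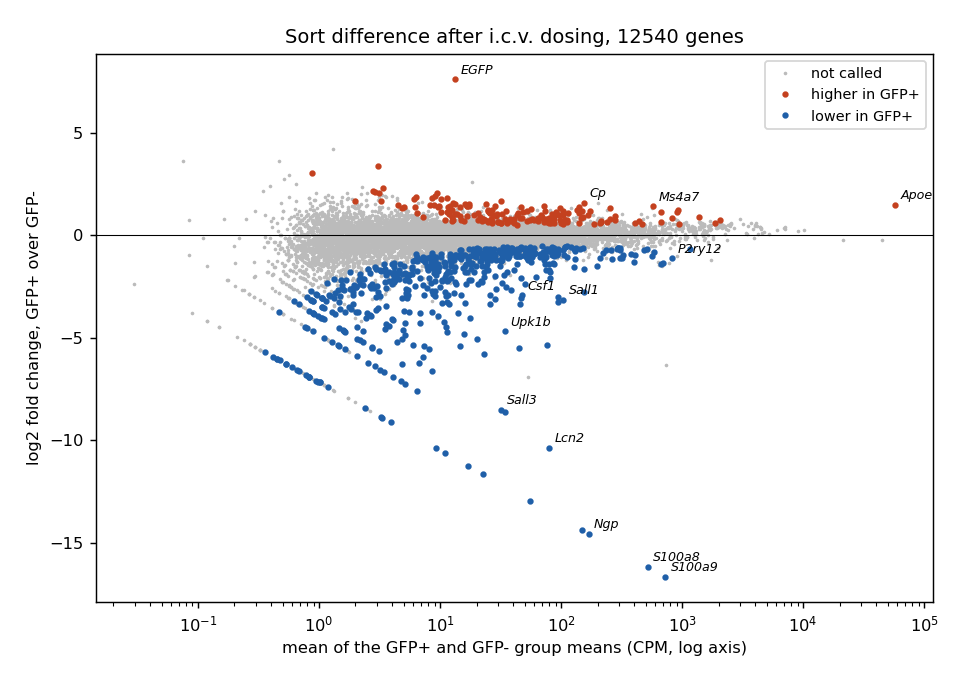
Each point is 1 of 12540 genes tested; the horizontal axis is the mean of the GFP+ and GFP- group means in CPM (log axis) and the vertical axis the fitted log2 fold change of GFP+ over GFP- cells after i.c.v. dosing. Red points (168) were higher and blue points (555) lower in GFP+ cells at an adjusted p under 0.05. EGFP stands apart at the top, Apoe lies at the far right, and the lowest points are neutrophil genes with no UMI in GFP+ cells.

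Some of the genes that rose in GFP+ cells are known from bone marrow-derived brain macrophages. Of 24 genes in a list of marrow-derived macrophage genes, all of which were tested, 7 rose (Ms4a14, Apoe, Ms4a7, Itga4, Apobec1, Ms4a6b and Pmepa1), 1 fell (Emb) and 16 did not pass. With the replicate block 14 of the 24 rose, without cells that held 2 or more markers of other cell types 15 rose, and without the 5% of cells with the most UMIs 16 rose. The list's median log2 fold change was 0.89, beside a median of -0.0018 over all genes. The list was chosen with results of these samples known, so it is not independent evidence of its direction. Each of the 7 genes was higher in both GFP+ libraries than in both GFP- libraries, which a call favours and which held for 28.3% of all genes tested.

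Apoe encodes apolipoprotein E, the main lipid carrier of the brain, and lies on chromosome 7 (19696109 to 19699188, GRCm38). Its level was 36958 CPM (female) and 23516 CPM (male) in GFP- cells and 75935 and 93705 CPM in GFP+ cells. The fitted difference was 2.81-fold (log2 fold change 1.49 ± 0.24 (SE), adjusted p = 0.0133). The 2 GFP- libraries also stood apart from each other, with the female's level above the male's.

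Ms4a7 and Ms4a14 are neighbouring members of the membrane-spanning 4-domain family on chromosome 19 (11321039 to 11336146 and 11301249 to 11314454). Ms4a7 was at 362 and 271 CPM in GFP- cells and at 692 and 982 CPM in GFP+ cells (log2 fold change 1.40 ± 0.27 (SE), adjusted p = 0.0233). At 500 UMIs per cell it was found in 11.8% and 7.63% of GFP- cells and in 22.8% and 30.3% of GFP+ cells. None of the thinned cells of a naive astrocyte sort held it, and 3.11% of the cells of a naive microglia sort did. Ms4a14 was lower in level, at 18.1 and 12.5 CPM against 42.2 and 53.7 CPM (log2 fold change 1.65 ± 0.30 (SE), adjusted p = 0.0197). It had the largest called rise after EGFP among genes of at least 20 CPM. Reads that match more than 1 Ms4a family member of similar sequence may have affected these levels, and this was not tested.

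The other called rises of the list were smaller than that of Ms4a14. Apobec1, an RNA-editing cytidine deaminase, was at 117 and 97.5 CPM in GFP- cells and at 224 and 258 CPM in GFP+ cells (adjusted p = 0.00544). Itga4, the alpha4 integrin chain that lets leukocytes bind the vessel wall, was at 63.5 and 46.7 CPM against 114 and 165 CPM (adjusted p = 0.0221). Pmepa1, a feedback inhibitor of TGF-beta signalling, was at 990 and 929 CPM against 1755 and 1799 CPM (adjusted p = 0.0421). Emb, an adhesion molecule with high levels in blood myeloid cells, went the other way, from 19.1 and 11 CPM in GFP- cells to 1.53 and 2.89 CPM in GFP+ cells (log2 fold change -2.74, adjusted p = 0.0140). Members that did not pass included Cybb, the catalytic subunit of the NADPH oxidase, at 522 and 265 CPM against 693 and 872 CPM (adjusted p = 0.0896). Lyz2, a lysozyme gene of mature myeloid cells, overlapped between the groups, at 3477 and 2382 CPM in GFP- cells and 3009 and 5960 CPM in GFP+ cells.

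CAM genes rose only in part. Of 16 CAM genes tested, 2 rose (Ms4a7 and Cp), none fell and the list median was 0.19. Cp, which encodes the copper-carrying ferroxidase ceruloplasmin, was at 96.6 and 59.4 CPM in GFP- cells and at 248 and 218 CPM in GFP+ cells (2.99-fold, log2 fold change 1.58 ± 0.23 (SE), adjusted p = 0.00999). Mrc1, the mannose receptor CD206, was at 335 and 266 CPM against 511 and 722 CPM and did not pass (adjusted p = 0.0701). It passed with the replicate block, where 4 of the 16 genes rose, and without cells that held 2 or more markers of other cell types, where 4 rose as well. The chemokine Pf4 (log2 fold change 0.67, adjusted p = 0.201) and the scavenger receptor Stab1 (0.49, adjusted p = 0.0943) did not pass. Cd163, a haemoglobin scavenger receptor of border macrophages, had 37.8 and 18.1 CPM in GFP- cells and 8.92 and 17.8 CPM in GFP+ cells (adjusted p = 0.157). The CAM genes thus had log2 fold changes of both signs, from -1.20 to 1.58.

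The calls of these 8 named rises (Apoe, Ms4a7, Ms4a14, Cp, Apobec1, Itga4, Ms4a6b and Pmepa1) depended on having both mice. All 8 were lost without the GFP- library of the male (adjusted p up to 0.275) and all 8 without the GFP+ library of the male (up to 0.204). Of the 8, 4 were kept without the GFP+ library of the female and 5 without its GFP- library. Ms4a6b was also lost without either i.v. GFP- library (adjusted p up to 0.0691), and Pmepa1 without the i.v. GFP+ library of the male (0.0510), since all 8 libraries share 1 estimate of the spread. Both were lost as well with cells thinned to 500 UMIs (up to 0.138) and with all deposited barcodes (up to 0.0587), and Ms4a14 was lost in cells of 500 or more genes and up to 5% mitochondrial UMIs (0.0562). Their log2 fold changes stayed above 0 in each of the 8 fits that left out 1 library.

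Beside EGFP, Ms4a14, Cp, Apoe and Ms4a7, the 15 largest called rises at 20 CPM or more held 10 other genes, with log2 fold changes from 1.39 to 1.55. They were Cd200r4, Apoc4, Clec2i, Kif1a, Aoah, Tmem221, Hgf, Ptpn22, Iqgap2 and Ifi203. Aoah, an enzyme that inactivates bacterial lipopolysaccharide, was at 49.7 and 27.5 CPM in GFP- cells and at 98.8 and 111 CPM in GFP+ cells (log2 fold change 1.44, adjusted p = 0.0278). Ifi203, an interferon-inducible gene, was at 102 and 52.7 CPM against 172 and 233 CPM (adjusted p = 0.0365). In each of these 10 genes both GFP+ libraries lay above both GFP- libraries, which the choice of called genes favours and which held for 28.3% of all genes tested. None of the 10 calls was kept without the GFP+ library of the female (adjusted p up to 0.122), without the GFP- library of the male (up to 0.300) or without its GFP+ library (up to 0.288). With thinned cells Cd200r4 and Apoc4 were lost (up to 0.241).

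The promoter windows of 4 genes are shown because they belong to the genes on which the comparison turns, a neighbouring pair that rose and a pair of purine receptors that fell. They are 300-base windows from 250 bases before to 50 bases after a RefSeq start site on the GRCm38.p6 assembly, the build of the files (mm10), written 5′ to 3′ on the strand of the gene. Capitals mark GGAAGT, the core bound by ETS factors such as PU.1, or TGAGTCA, the AP-1 motif, on either strand (ACTTCC and TGACTCA on the other).
Ms4a7 (chr19:11336097-11336396, minus strand): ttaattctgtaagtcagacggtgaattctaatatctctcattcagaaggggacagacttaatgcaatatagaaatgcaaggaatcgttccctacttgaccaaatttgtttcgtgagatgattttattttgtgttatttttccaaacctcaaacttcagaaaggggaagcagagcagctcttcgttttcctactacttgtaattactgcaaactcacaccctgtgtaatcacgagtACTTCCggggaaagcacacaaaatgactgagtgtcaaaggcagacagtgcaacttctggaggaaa
Ms4a14 (chr19:11314405-11314704, minus strand): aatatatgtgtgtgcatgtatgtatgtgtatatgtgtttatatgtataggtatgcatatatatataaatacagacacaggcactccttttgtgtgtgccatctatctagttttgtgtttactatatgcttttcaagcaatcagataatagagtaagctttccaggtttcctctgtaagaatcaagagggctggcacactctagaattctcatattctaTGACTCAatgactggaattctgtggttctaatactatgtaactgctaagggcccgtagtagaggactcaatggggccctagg
P2ry12 (chr3:59262936-59263235, minus strand): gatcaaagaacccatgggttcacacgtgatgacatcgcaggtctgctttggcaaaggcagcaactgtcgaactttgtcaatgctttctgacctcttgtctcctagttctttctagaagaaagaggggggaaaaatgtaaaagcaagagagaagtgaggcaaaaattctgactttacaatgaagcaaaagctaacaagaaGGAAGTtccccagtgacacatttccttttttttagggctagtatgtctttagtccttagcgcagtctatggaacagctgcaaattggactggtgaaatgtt
Adora3 (chr3:105904171-105904470, plus strand): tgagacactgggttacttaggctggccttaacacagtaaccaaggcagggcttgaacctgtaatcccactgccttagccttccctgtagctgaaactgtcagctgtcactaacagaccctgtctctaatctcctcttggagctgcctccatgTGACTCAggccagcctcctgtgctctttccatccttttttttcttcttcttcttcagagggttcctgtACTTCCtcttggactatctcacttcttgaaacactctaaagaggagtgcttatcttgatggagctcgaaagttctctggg
GGAAGT occurred once each in the windows of Ms4a7, P2ry12 and Adora3, and TGAGTCA once each in those of Ms4a14 and Adora3. The first motif was present in 23.8% of all 32851 listed windows, in 39 of the 169 windows of genes that rose (23.1%) and in 136 of the 570 windows of genes that fell (23.9%). The second was present in 5.2% of all windows, in 6 of 169 (3.55%) and in 14 of 570 (2.46%). Of the called genes, 132 of 168 and 401 of 555 had a listed window. These are matches of letters, not binding sites.

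Microglial identity genes were lower in GFP+ cells, but unevenly. Of 26 homeostatic microglia genes tested, 6 fell (Upk1b, Slc2a5, Adgrg1, Selplg, P2ry12 and Tmem119), none rose, and the list median was -0.38. The transcription factors Sall1 and Sall3 fell, and they were the only called genes among 20 transcription factors of microglia and macrophages tested (list median 0.06). Csf1r and Cx3cr1, which microglia-like cells of marrow origin are known to express, had close values in both sorts in summed counts, where deep cells weigh more.

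Sall1 (chromosome 8, 89027235 to 89044162) was at 152 and 223 CPM in GFP- cells and at 24.9 and 17.4 CPM in GFP+ cells, 8.88-fold lower (log2 fold change -3.15 ± 0.36 (SE), adjusted p = 0.00386). Sall3, a paralog, was at 50.6 and 77.0 CPM in GFP- cells and at 0.117 and 0.199 CPM in GFP+ cells, which rest on 1 and 2 UMIs. The ratio of summed counts was 395-fold with a 95% counting interval of 135 to 1917. In both genes every GFP+ library lay below every GFP- library by a wide margin. Such an order, by any margin, is favoured by a call and held for 30.9% of all genes tested. Other transcription factors did not pass: Mef2c was at 1005 and 1031 CPM against 1044 and 1113 CPM, and Mef2a at 1063 and 1006 CPM against 942 and 777 CPM.

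Among surface proteins, Upk1b, a tetraspanin, fell most, from 47.8 and 85.4 CPM to 3.29 and 1.89 CPM (25.9-fold, adjusted p = 0.00234). Slc2a5, the fructose transporter GLUT5, fell from 135 and 201 CPM to 29.3 and 13.1 CPM (7.96-fold, adjusted p = 0.00825). P2ry12, the ADP receptor that guides microglial processes to injury, was at 835 and 1431 CPM in GFP- cells and at 534 and 502 CPM in GFP+ cells (2.19-fold lower, log2 fold change -1.13 ± 0.24 (SE), adjusted p = 0.0346). Tmem119 was at 592 and 897 CPM against 383 and 367 CPM (1.99-fold lower, adjusted p = 0.0342). In both genes the GFP+ libraries lay below the GFP- libraries without overlap, which a call favours and which held for 30.9% of all genes tested. Csf1r was at 1800 and 1879 CPM against 1878 and 1618 CPM, and Cx3cr1, one of the antigens of the sort gate, at 1433 and 1818 CPM against 1343 and 1422 CPM. The Fc receptor-like gene Fcrls was at 1641 and 1230 CPM against 2352 and 1657 CPM (adjusted p = 0.239).

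**Figure D2:**
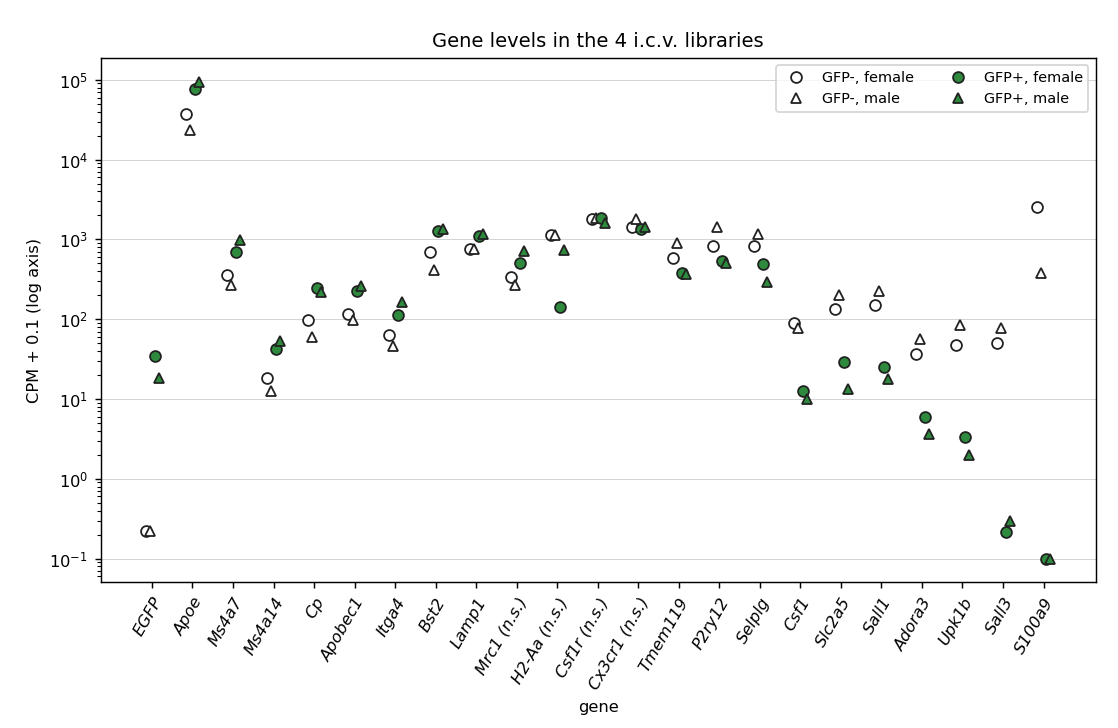
Levels of 23 genes in the 4 i.c.v. libraries, as CPM plus 0.1 on a log axis; open symbols are GFP- and filled symbols GFP+ libraries, circles the female and triangles the male, and n.s. marks genes with an adjusted p of 0.05 or more. Rises such as Apoe and Ms4a7 are within a few-fold, Csf1r and Cx3cr1 lie together in all 4 libraries, and Sall3, Upk1b and S100a9 fall by far more.

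The call of the homeostatic genes depended on how cells were weighted. In summed counts, deep cells weigh more: the 10% of cells with the most UMIs held 47.8% and 46.5% of all UMIs in GFP- libraries and 38.8% and 39.5% in GFP+ libraries. When every cell was thinned to 500 UMIs, so that each counted equally, 12 of the 26 homeostatic genes fell, with a list median of -0.92 beside -0.02 over all genes. Over all genes, 243 of 10160 fell with thinned cells. P2ry12 then had a log2 fold change of -1.71 (adjusted p = 0.00453) and Gpr34 one of -1.34 (adjusted p = 0.00719), against -0.63 (adjusted p = 0.0973) in summed counts. Among cells with no UMI of the CAM markers, Cx3cr1 and Csf1r were also lower in GFP+ cells at this depth. Cx3cr1 was at 0.922 and 1.13 UMIs per 500 in GFP- cells and at 0.650 and 0.694 in GFP+ cells. Csf1r was at 1.19 and 1.21 against 0.918 and 0.830. The gaps were smaller in cells with 3 or more CAM UMIs. There Cx3cr1 was at 0.641 and 0.658 against 0.521 and 0.640, and Csf1r at 0.920 and 0.984 against 0.873 and 0.890. These means are descriptions and were not tested. Of the 8 called microglia genes (6 homeostatic genes, Sall1 and Sall3), 2 (Upk1b and Sall3) kept their call without the GFP+ library of the male, 4 without the GFP- library of the male (adjusted p up to 0.235) and 5 without the GFP+ library of the female. All 8 kept it without the GFP- library of the female. P2ry12 and Selplg were also lost without either i.v. GFP- library (adjusted p up to 0.0540), and P2ry12, Tmem119 and Selplg in cells of 500 or more genes and up to 5% mitochondrial UMIs (up to 0.0755).

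Signalling genes called as lower included the ligand Csf1 but not its receptor, whose values in thinned cells are given above. Csf1 (chromosome 3, 107741048 to 107760469) encodes colony-stimulating factor 1, a survival factor of microglia. It was at 90.2 and 78.6 CPM in GFP- cells and at 12.3 and 9.77 CPM in GFP+ cells, 7.65-fold lower (log2 fold change -2.94 ± 0.19 (SE), adjusted p = 0.00106), and it was the only called gene of 10 tested in the CSF axis. Its call was kept in each of the 8 fits that left out 1 library. Adora3, the adenosine A3 receptor, fell from 36.7 and 57.2 CPM to 5.87 and 3.49 CPM (10.1-fold, adjusted p = 0.00242). With P2ry12 and P2ry10 it made up the 3 of 11 purinergic genes that fell. P2ry10 had only 14 and 14 UMIs in GFP- libraries and none in GFP+ libraries.

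Of 16 TGF-beta signalling genes tested, Pmepa1 rose, Eng and Smad7 fell, and the median was -0.16. Eng, the co-receptor endoglin, was at 39.1 and 52.2 CPM against 10.8 and 12.2 CPM (3.96-fold lower, adjusted p = 0.00221). Smad7, an inhibitor of the pathway, was at 664 and 821 CPM against 409 and 428 CPM (adjusted p = 0.0329). Both of these inhibitors of the pathway were called, in opposite directions.

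Inflammatory genes showed few calls. Tnf, a proinflammatory cytokine, fell from 340 and 498 CPM to 179 and 205 CPM (2.18-fold, adjusted p = 0.0334), and Il10rb, a chain of the IL-10 receptor, rose from 188 and 183 CPM to 278 and 305 CPM (adjusted p = 0.0267). The other 16 of the 18 cytokine and inflammasome genes did not pass, among them Il1b, at 849 and 785 CPM against 540 and 1060 CPM. Among 21 chemokines and receptors none rose and 4 fell. Ccr2, the receptor that brings monocytes out of the marrow, was at 24.0 and 13.5 CPM against 1.29 and 2.39 CPM (9.93-fold lower, adjusted p = 0.00633). Tlr3, a sensor of double-stranded RNA, was the only 1 of 17 toll-like receptor genes to fall, and 2 of 15 complement genes fell, Itgb2 among them.

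Several of these calls were lost when a library was left out. Of 16 falls in these lists (among them Csf1, Adora3, P2ry10, Ccr2, Ccl9, Ccl6, Tlr3, Tnf, Cd9, Itgb2, Eng, Smad7, Pros1 and Scarb1), 10 were kept without the GFP- library of the female, 7 without its GFP+ library, 6 without the GFP- library of the male and 5 without its GFP+ library, with adjusted p up to 0.287. Csf1, Adora3, Ccr2, Ccl9 and Eng were kept in all 8 such fits. Il10rb was lost in 4 of them, and with thinned cells (adjusted p = 0.204). Smad7 was also lost without either i.v. GFP- library (adjusted p up to 0.0549).

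Adhesion genes were lower in several members. Of 21 integrin and adhesion genes tested, 7 fell (among them Emb, Itgb7, Itgb3, Pecam1, Selplg and Itgb2), Itga4 rose, and the median was -0.67. Itgb3 was at 20.2 and 25.4 CPM against 5.05 and 3.69 CPM (5.23-fold lower, adjusted p = 0.00221) and was the only one of the 7 kept in all 8 fits that left out 1 library. The share of fallen genes, 7 of 21, stands beside 4.43% of all genes tested. Emb is also high in blood leukocytes, whose markers moved with this list, as given below. Without cells that held 2 or more markers of other cell types, 5 of the 6 falls that could be fitted were kept.

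Few interferon-stimulated and lysosomal genes were called. Of 22 interferon-stimulated genes, Bst2 and Ifi44 rose, none fell, and the median was 0.54. Bst2, which tethers budding virus to the cell, was at 692 and 413 CPM in GFP- cells and at 1285 and 1336 CPM in GFP+ cells (2.37-fold, adjusted p = 0.0217). Of 35 lysosomal and storage disease genes, Lamp1, Asah1 and Sgsh rose and none fell, with a median of 0.23. Lamp1, a lysosomal membrane protein, was at 764 and 763 CPM against 1097 and 1155 CPM (1.48-fold, adjusted p = 0.0440). Grn, which encodes progranulin, was at 800 and 803 CPM against 934 and 971 CPM (adjusted p = 0.320). Hexa was at 495 and 505 CPM against 646 and 744 CPM (adjusted p = 0.102). With cells thinned to 500 UMIs, the call of Sgsh was kept and those of Bst2, Ifi44, Lamp1 and Asah1 were lost, and the lysosomal median was -0.03, of the opposite sign. Sgsh was lost by DESeq2 (adjusted p = 0.106), and Lamp1 and Sgsh with all deposited barcodes (up to 0.0627). None of these 5 calls was kept without the GFP- library of the male (adjusted p up to 0.297) or without its GFP+ library (up to 0.258). Ifi44 and Lamp1 were also lost without either i.v. GFP- library (up to 0.0695).

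Genes of disease-associated microglia did not move together. Of 23 tested, Apoe and Timp2 rose, Csf1, Cd9 and Ccl6 fell, and the median was 0.21, but -0.31 with thinned cells. Cd9, a tetraspanin, was at 889 and 1035 CPM in GFP- cells and at 410 and 318 CPM in GFP+ cells (2.64-fold lower, adjusted p = 0.00686). Timp2, an inhibitor of matrix proteases, was at 610 and 592 CPM against 965 and 1156 CPM (adjusted p = 0.0193), and lost its call with thinned cells (adjusted p = 0.447). Trem2, a lipid receptor needed for that state, was at 1433 and 1630 CPM against 1765 and 1933 CPM (adjusted p = 0.318). The 14 MHC class I genes had a median of 0.38 and none was called. No gene was called among 8 Fc receptors (median 0.23) and 7 NADPH oxidase genes (median 0.12). With thinned cells these medians were -0.08 and -0.18, and Cybb rose (adjusted p = 0.0214), as it did with the replicate block (adjusted p = 0.0476).

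In the remaining lists, calls were few. Among 21 lipid handling genes Apoe and Apoc4 rose (median 0.32), among 17 scavenger and apoptotic-cell receptors Pros1 and Scarb1 fell (median 0.04), and among 16 iron and heme genes Cp rose while Hp and Lcn2, both also neutrophil genes, fell (median 0.16). Among 18 matrix genes Timp2 rose and Mmp8 fell (median -0.66). Egr3 was the only called gene of 22 immediate-early and dissociation genes (median 0.18), and Stmn1 the only 1 of 19 cell cycle genes (median -0.65). Both fell. With thinned cells the medians of the scavenger (-0.14), matrix (0.15) and immediate-early lists (-0.14) had the opposite sign.

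**Figure D3:**
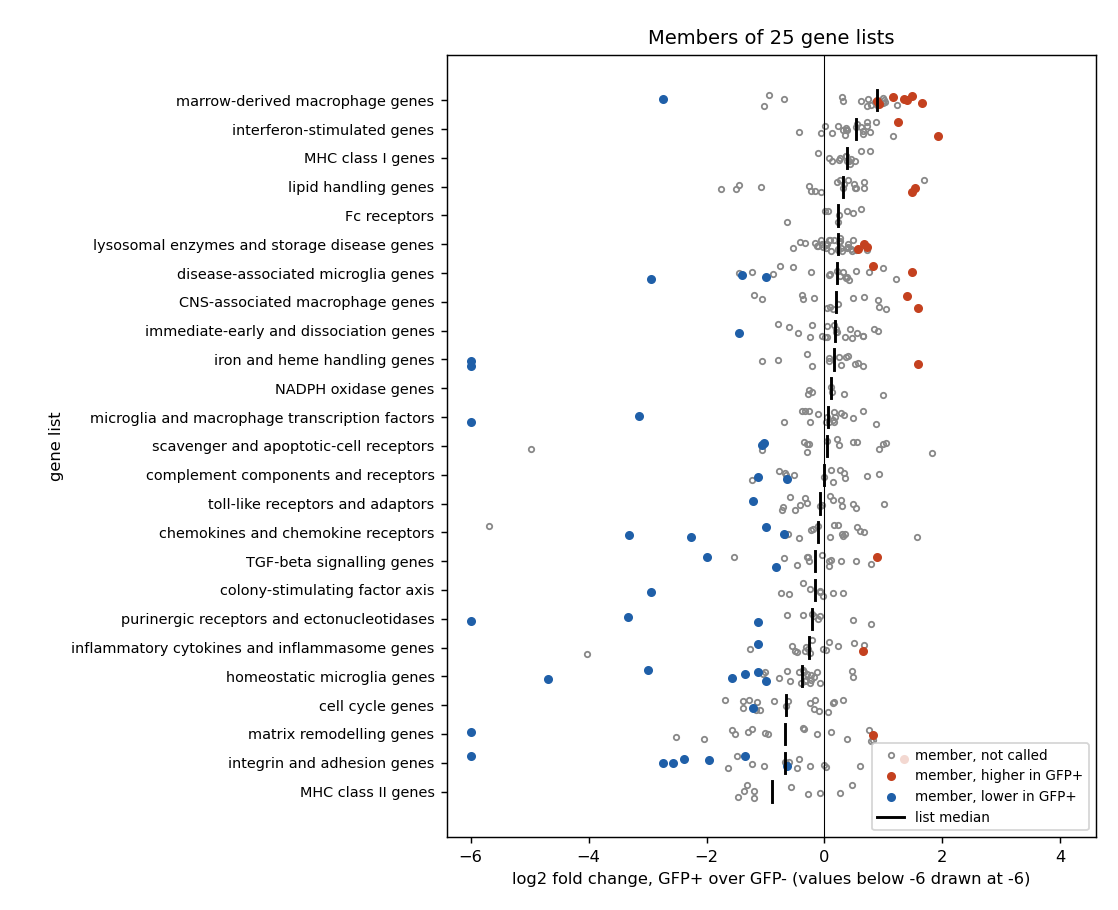
Members of 25 gene lists by their fitted log2 fold change, GFP+ over GFP- cells after i.c.v. dosing; open grey points were not called, red points were higher and blue points lower in GFP+ cells, and black bars are list medians (6 points below -6 are drawn at -6). The marrow-derived macrophage list has the highest median (0.89) and the MHC class II list the lowest (-0.88), with no MHC class II gene called.

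The largest falls were those of neutrophil genes, which were at or near 0 in GFP+ cells. Of the 15 largest called falls among genes of at least 20 CPM, 10 were genes that neutrophils store or secrete (S100a9, S100a8, Ngp, Camp, Retnlg, Chil3, Wfdc21, Hp, Lcn2 and Ltf). S100a9 was at 2536 and 378 CPM in GFP- cells and gave no UMI in either GFP+ library, at least 9014-fold lower against a floor of 3 counts over the group. Ngp, at 556 and 120 CPM, also gave no UMI and was at least 2090-fold lower. Lcn2 gave 2 UMIs in 1 GFP+ library, a ratio of 1487-fold (95% counting interval 411 to 12287). These levels came from few cells, as 21 of 4355 and 12 of 4087 GFP- cells were neutrophil-marked. Over the 10 neutrophil markers the summed level was 6019 and 963 CPM in GFP- libraries and 1.88 and 8.57 CPM in GFP+ libraries, 8 of the 10 fell, and 6 (S100a8, S100a9, Retnlg, Ngp, Camp and Ly6g) were at 0 in both GFP+ libraries. In bulk sums, fewer cells of a type and less RNA per cell cannot be told apart. Of the 10 named neutrophil genes, 4 kept their call without the GFP+ library of the female and 1 without that of the male (adjusted p up to 0.170).

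The monocyte markers had summed levels of 423 and 230 CPM in GFP- and 367 and 387 CPM in GFP+ libraries, which overlap. Of its 10 genes, 6 fell (among them Ly6c2, Ccr2, Plac8, Chil3 and Ace), and 3, including Plac8 and Chil3, were at 0 in both GFP+ libraries. Ly6c2 was at 14.1 and 4.64 CPM against 0 and 0.0997 CPM. Only Ccr2 of these 6 was kept without either GFP+ library.

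Myelin genes were also lower in GFP+ cells. Of 8 oligodendrocyte markers 7 fell, with summed levels of 286 and 328 CPM in GFP- libraries and 69.9 and 69.7 CPM in GFP+ libraries, and all 8 markers gave at least 1 UMI over the GFP+ libraries. Oligodendrocyte-marked cells were 0.207% and 0.147% of GFP- and 0.382% and 0.198% of GFP+ cells. None of the 3 falls that could be fitted was kept without cells that held 2 or more markers of other types (adjusted p up to 0.652), and none of the 4 that could be fitted was kept without the 5% of cells with the most UMIs.

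Beside these groups, other genes of no list fell far. Nbea, a large scaffold protein of membrane trafficking, was at 25.1 and 31.8 CPM in GFP- cells and at 0.939 and 0.399 CPM in GFP+ cells (42.9-fold lower, adjusted p = 0.00173), and kept its call without marker-positive cells of other types. S100a6, a calcium-binding protein, was at 128 and 48.7 CPM against 3.17 and 0.798 CPM (adjusted p = 0.0135), and G0s2, an inhibitor of lipolysis, at 68.2 and 23.1 CPM against 1.41 and 0.299 CPM (adjusted p = 0.00686). Of all called genes, 60 of the 555 falls and 1 of the 168 rises (EGFP) were kept in each of the 8 fits that left out 1 library. Without cells that held 2 or more markers of other types, 161 of the 168 rises and 444 of the 555 falls were kept.

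The i.c.v. mice differed from the i.v. mice in MHC class II. Of 10 MHC class II genes tested, none was called between the sorts after i.c.v. dosing (median -0.88). For 7 of the 10 the sort difference depended on route in a test of the interaction, beside 1.91% of all genes tested. H2-Aa was at 1123 and 1127 CPM in GFP- cells and at 143 and 733 CPM in GFP+ cells after i.c.v. dosing (log2 fold change -1.36 ± 0.58 (SE), adjusted p = 0.225). After i.v. dosing it was at 838 and 603 CPM in GFP- cells and 5989 and 6464 CPM in GFP+ cells. The interaction was -4.47 ± 0.84 (SE, log2 scale, adjusted p = 0.0396). Cd74, the invariant chain, was at 2481 and 2307 CPM against 432 and 1653 CPM after i.c.v. dosing, with an interaction of -4.39 (adjusted p = 0.0245). The 2 i.c.v. GFP+ libraries stood far apart in these genes, the female below the male. The share of dendritic-marked cells moved with this difference, as given above. The summed level of these markers was 1322 and 1402 CPM in i.c.v. GFP+ and 1609 and 1701 CPM in i.v. GFP+ libraries. After i.c.v. dosing most of that sum was Bst2, at the levels given above, so the sum says little about dendritic cells. Without cells holding 2 or more markers of other types, none of the 7 interactions was called. That filter took out 26.8% and 20.2% of i.v. GFP+ cells and 10.7% and 10.8% of i.c.v. GFP+ cells. Of GFP- cells it took out 4.96% to 9.28%. Its marker lists include Bst2, which was high in the GFP+ cells as a whole. Which cells carried the lost calls was not tested.

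In all, the sort difference depended on route for 240 genes (1.91% of those tested), 14 with a positive (0.112%) and 226 with a negative interaction (1.80%). Most of the latter that were named by size are neutrophil or monocyte genes. Ccr2 fell in i.c.v. GFP+ cells, as above, and was at 23.2 and 14.2 CPM in GFP- and 179 and 134 CPM in GFP+ cells after i.v. dosing (interaction -6.39, adjusted p = 0.00673). Among positive interactions were genes that fell less after i.c.v. dosing. Adamts1, a secreted matrix protease, was at 228 and 193 CPM in GFP- and 105 and 75.5 CPM in GFP+ cells after i.c.v. dosing, and at 376 and 191 CPM and 19.5 and 19.7 CPM after i.v. dosing (interaction 2.63, adjusted p = 0.0242). Without cells holding 2 or more markers of other types, 5 of the 240 genes were called (Col14a1, Emb, S100a6, S100a9 and Tnip3). That filter took out a larger share of i.v. GFP+ cells than of the other groups, as given above. For the 26 homeostatic microglia genes no interaction was called, with P2ry12 at 0.86 (adjusted p = 0.238). None was called among the 20 transcription factors either, with Sall1 at 1.40 (adjusted p = 0.182). With 2 libraries per group, this does not show that these sort differences were alike between routes. The risen genes Apoe, Ms4a7 and Cp had interactions of -0.98, -1.37 and -0.59, none called. In the list of 24 marrow-derived macrophage genes, however, 5 interactions were called, beside 1.91% of all genes tested. When GFP+ cells were compared directly between routes, 348 genes were called (2.78% of those tested), 27 higher (0.215%) and 321 lower (2.56%) after i.c.v. dosing. Without cells holding markers of other types, 2 of these (Ccr2 and S100a6) were called.

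Cells within a library differed along the same genes. Cells were thinned to 500 UMIs and binned by their UMIs of the 10 CAM markers, so that the values in a bin are descriptions. In GFP- libraries, cells with 0 CAM UMIs had a mean of 7.11 (female) and 8.68 (male) UMIs from the 12 microglia markers, and cells with 3 or more had 5.26 and 5.36. In GFP+ libraries these means were 4.75 and 4.31, and 3.76 and 3.55. GFP+ cells in the bin with 0 CAM UMIs held fewer microglia-marker UMIs than the CAM-marked cells of the GFP- sort.

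Apoe went from 10.9 and 5.42 UMIs per 500 in GFP- cells with 0 CAM UMIs to 20.7 and 20.8 in those with 3 or more. In GFP+ cells it was 20.9 and 30.5 at 0 CAM UMIs and 25.2 and 31.3 at 3 or more. Sall1 was at 0.149 and 0.175 UMIs per 500 in the GFP- cells with 0 CAM UMIs, at 0.0341 and 0.102 in those with 3 or more, and between 0.00439 and 0.0303 in all GFP+ bins. The sorts thus also differed among cells in which no CAM UMI was drawn. At this depth, 0 CAM UMIs does not show that a cell lacks CAM transcripts. The bins with 3 or more CAM UMIs held 323 and 187 GFP- cells and 378 and 683 GFP+ cells.

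**Figure D4:**
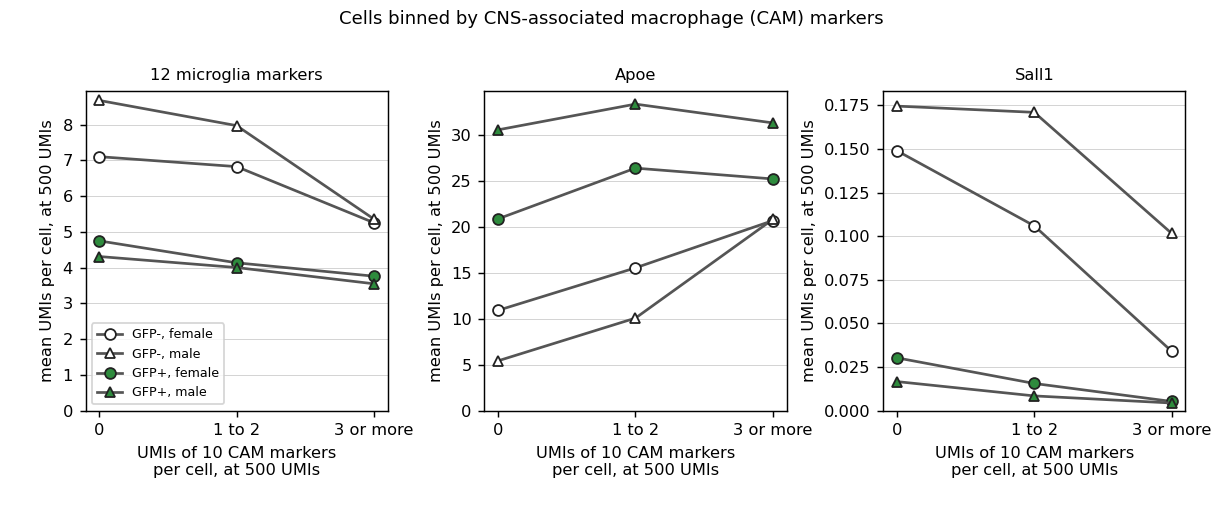
Mean UMIs per cell of 12 microglia markers (left), Apoe (middle) and Sall1 (right) in cells thinned to 500 UMIs, by the cell's UMIs of 10 CAM markers; open symbols are GFP- and filled symbols GFP+ libraries, circles the female and triangles the male. GFP+ cells lie below GFP- cells for the microglia markers and Sall1 and above them for Apoe in each bin.

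Sex-linked transcripts, which mark the sex of a cell's donor, were read in each library. Xist, the long RNA of the inactive X chromosome, is made by female cells, and Ddx3y, Eif2s3y, Kdm5d and Uty lie on the Y chromosome. In the female, Xist was found in 65.7% of GFP- and 1.11% of GFP+ cells, and a Y-linked transcript in 1.33% of GFP- and 49.4% of GFP+ cells. In the male, a Y-linked transcript was found in 34.6% of GFP- and 47.9% of GFP+ cells. In the female, where donor and recipient differ in sex, the GFP+ cells thus carried the male transcripts of the HSPC donors. In the male, these transcripts cannot tell donor from recipient.

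The GFP- library of the male also held cells with Xist. Xist was at 111 CPM there against 0.0997 CPM in the GFP+ library of the same mouse, and it was found in 127 of 4087 GFP- cells (3.11%, 95% exact interval 2.60% to 3.69%) and in 1 of 3536 GFP+ cells. The 127 cells held a median of 6 Xist UMIs and up to 25, and 118 of them held at least 2. None of their barcodes was shared with a cell of a female's library, and 1 was shared with the GFP- sort of the other male. Of the 127 cells, 107 held no Y-linked transcript.

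These Xist cells were concentrated among CAM-marked cells. Of the 382 cells with at least 3 CAM markers, which had a median of 3947.5 UMIs, 64 held Xist (16.8%, interval 13.1% to 20.9%). Of the 3705 cells with fewer, at a median of 904 UMIs, 63 did (1.70%, interval 1.31% to 2.17%). After i.v. dosing, the GFP- sort of the male gave 2.13% and 0.370% for the same classes. At 500 UMIs, the 107 cells with Xist and no Y-linked transcript had a mean of 4.52 UMIs from the microglia markers, against 7.59 in the 1395 cells with a Y-linked transcript and no Xist and 3.98 in the cells of that kind in the GFP+ library. Their Apoe level was 23.2 UMIs per 500 against 8.33 and 34, that of Ms4a7 0.374 against 0.0903 and 0.417, and that of Sall1 0.0187 against 0.145 and 0.00826. For these genes their means lay nearer to the GFP+ than to the other GFP- cells. H2-Aa was different, at 1.25 UMIs per 500 against 0.280 and 0.258. No EGFP UMI was found in the 107 cells at their own depth. In the GFP+ library of the same mouse, EGFP was found in 108 of the 1695 cells with a Y-linked transcript and no Xist. Whether the 107 cells carried the vector was not tested.

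In the GFP- library of the female, where the reverse can be read, 47 of 4355 cells held a Y-linked transcript and no Xist. Of these, 19 (40.4%) held at least 3 CAM markers, against 16.5% of the 2852 cells with Xist and no Y-linked transcript. Their Apoe level was 27.8 UMIs per 500 against 11.8, and that of Ms4a7 0.340 against 0.141. Other values were close, with 5.11 against 5.81 UMIs from the microglia markers and 0.0638 against 0.0638 for Apobec1. With 47 cells, a mean such as that of Sall1 (0.0851 against 0.108) rests on few UMIs. The study describes all donor animals of the experiment as male, and where the Xist cells of the male came from was not tested.

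**Figure D5:**
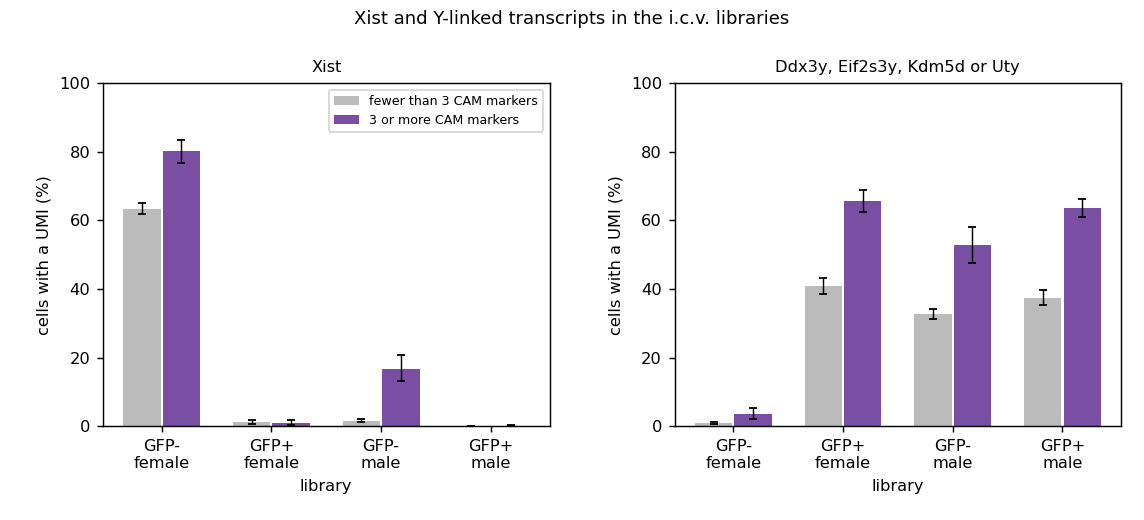
Share of cells (%) with at least 1 UMI of Xist (left) or of Ddx3y, Eif2s3y, Kdm5d or Uty (right) in the 4 i.c.v. libraries, at each cell's own depth; grey bars are cells with fewer than 3 and purple bars cells with 3 or more of 10 CAM markers, and error bars are 95% exact binomial intervals. In the GFP- cells of the male, 16.8% of CAM-marked cells held Xist, against 1.70% of the others.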

How the data were processed

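Gene by cell UMI counts were deposited by the authors for each library as made with Cell Ranger 3.1.0 on mm10, per the file headers and the submitters' processing notes, from droplet libraries of the 3′ ends of transcripts. Kept cells gave between 7777472 and 10904837 UMIs per i.c.v. library. No doublets were removed. Counts were summed per library and tested with edgeR 4.0.16 (R 4.3.3; TMM scaling, filterByExpr, quasi-likelihood, 4 group means over the 8 libraries of dosed mice), with Benjamini-Hochberg adjustment. With 2 mice per group and 1 library per mouse and sort, p-values measure the spread between these libraries. Both sorts came from the same animal: deviations from the group means correlated at r = 0.0906 (i.c.v.) and r = 0.575 (i.v.) over 5932 genes, and a fit with the animal as a block is an alternative. Cells were thinned to 500 UMIs where depth mattered. Intervals and floors (3 counts) cover counting error only. Named genes were the 15 largest called changes in each direction at 20 CPM or more with the same sign in both mice, up to 10 per direction of the route interaction, members of 25 lists, the sex-linked genes, and genes the study named. The members and lists were chosen with earlier results of these data known. Nbea falls under the first of these. Gene positions were matched by Ensembl ID for 31011 of 31054 genes, and promoter windows are from RefSeq. DESeq2 1.42.0, other filters, scalings and cell sets, and leaving out each library were tried as alternatives. A few genes are not reported here.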

Additional observations from a re-analysis of the deposited data

Results flagged for a closer look

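The results below had a sort difference that depended on route in the test of the interaction (edgeR's quasi-likelihood test, adjusted p under 0.05), which held for 240 genes. Values are the log2 fold change of GFP+ over GFP- cells after i.c.v. dosing minus that after i.v. dosing. Groups of 2 libraries are too small for a test of single outlying samples.

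Positive values, where GFP+ cells were relatively higher after i.c.v. dosing, were found for Mrc2 (3.85), Adamts1 (2.63), Sema4g (2.49), Pard3b (1.80), Slco4a1 (1.72), Atp8a2 (1.58), Ildr2 (1.53), Cd34 (1.52), Afap1l1 (1.26) and Trim2 (1.25). Mrc2, a collagen receptor of the mannose receptor family, was at 18.2 and 12.7 CPM in GFP- and 12.9 and 5.08 CPM in GFP+ cells after i.c.v. dosing, and at 24.1 and 16.9 CPM and 1.10 and 0.350 CPM after i.v. dosing.

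Negative values were found for the neutrophil and monocyte genes Ngp (-24.71), Camp (-22.58), Chil3 (-21.75), S100a9 (-20.84), S100a8 (-20.51), Lcn2 (-17.76), Retnlg (-16.32), Wfdc21 (-16.02), Ltf (-15.60), Plac8 (-14.62) and Hp (-14.59), and for S100a6 (-8.51) and G0s2 (-8.38). Where a gene had no UMI in the i.c.v. GFP+ libraries, the fitted value depends on the prior count and is no bound. Neutrophil markers moved with these results: their summed level was 1924 and 3892 CPM in i.v. GFP+ libraries, against 1.88 and 8.57 CPM in i.c.v. GFP+ libraries.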

How the results depend on the processing

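Genes higher in GFP+ cells after i.c.v. dosing numbered 168, and 292 with no filter on low counts, 388 without cells with 2 or more markers of other types, 485 without the 5% of cells with the most UMIs, 458 with the replicate block and 283 from the 4 i.c.v. libraries alone. Genes lower in GFP+ cells numbered 555, and 243 with thinned cells. Leaving out 1 library gave 3 to 192 higher and 77 to 600 lower genes, the lone library of a group then being assumed to vary like the others; 3 rises were called without the GFP- library of the male and 77 falls without its GFP+ library. Genes whose sort difference depended on route numbered 240, and 698 with no filter, 598 by DESeq2, 142 in cells of 500 or more genes and up to 5% mitochondrial UMIs, 5 without cells with markers of other types, 74 with thinned cells and 678 with the replicate block (41 to 239 when 1 library was left out). GFP+ cells of the 2 routes differed in 348 genes, and in 679 with no filter, 526 by DESeq2, 2 without cells with markers of other types, 228 without the deepest cells and 86 with thinned cells (42 to 293 when 1 library was left out). The difference in share of marked cells, GFP+ minus GFP- in percentage points, moved for microglia from -17.2 to -7.78 with 2 markers required, for CAMs from 25.6 to 35.3 (15.6 at 500 UMIs), for monocytes from -0.247 to -1.02 (-0.139 at 500 UMIs) and for neutrophils from -0.388 to -0.673. The causes were not tested. No fold change called between the sorts reversed its sign in the fits that left out 1 library, but with thinned cells the medians of 7 lists had the opposite sign, as given with those lists. Genes of a few CPM rest on few UMIs, which limits them.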
